A study of Mus musculus with 6 samples.

Results

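Collagen-high spots were the spots of mouse kidney sections with the most RNA of fibrillar collagen genes but without a strong smooth muscle signal. They were chosen by their UMI counts, over 18684 spots with at least 1000 UMIs (unique molecular identifiers, each a counted RNA molecule) from 6 Visium libraries. In each spot, UMIs were divided by the spot's total, multiplied by 10000 and put on the log1p scale. Score A was the mean of these values over Col1a1, Col1a2, Col3a1 and Dcn, and score B was the mean over the smooth muscle and pericyte genes Acta2, Myh11, Tagln and Rgs5. A spot was taken when score A was at or above its pooled 95th percentile, 1.496, and score B was below its pooled 96th percentile, 1.003. This gave 694 of the 18684 spots, or 694 of 19095 with shallow spots included. The 5 spots just inside the limit on score A lay between 1.4964 and 1.4981, and the 5 just outside lay between 1.4940 and 1.4964, so the limit cut a continuous range.

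Visium captures RNA on a slide printed with barcoded spots, each wide enough to lie under several cells. Kidneys were frozen, cryosectioned at 10 µm and profiled as 1 library per group, in a study of progression and of hEV treatment in Alport syndrome. 2-month and 5-month Alport syndrome (AS) kidneys, early treated and late treated 5-month AS kidneys, a WT kidney and a mixed library of WT and heterozygous females made up the series. The 4 AS libraries carried the genotype B6.Cg-Col4a5tm1Yseg, WT the genotype B6C57, and the mixed library both. The treated groups, both given hEV, are called early treated and late treated, and the other groups 5m AS and 2m AS, for which no treatment was named, the mixed library, and WT. The sources used here do not give the dose and dates of hEV, what early and late refer to, the age of WT and of the mixed library, or the sex of the 5 libraries not labelled as female. With 1 library per group, animal, section, slide and condition cannot be told apart. Therefore no p-value was computed, and all differences are descriptions of these libraries.

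Alport syndrome is caused by defects of the type IV collagen chains that build the glomerular basement membrane, and Col4a5 encodes one of these chains. Loss of the filter is followed by tubular damage and interstitial fibrosis. In kidney fibrosis, fibroblasts and pericytes of the interstitium are the main known producers of collagen I and III. Injured tubule cells release signals such as TGF-beta and PDGF, and macrophages gather in the same areas. Arteries and the tissue around them hold collagen in a healthy kidney too, from adventitial fibroblasts of the vessel sheath.

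Total depth was 48940875 to 91976637 UMIs per library over 1997 to 4093 spots. Collagen-high spots were shallower than the other spots in each compared library. Their median depth was 8961 UMIs in early treated, 10381.5 in late treated, 24251.5 in 5m AS and 16178 in 2m AS. In the other spots it was 13524.5, 18857, 27016 and 28723. Mitochondrially encoded genes took 4.41%, 5.11%, 5.39% and 9.14% of their UMIs, against 6.07%, 8.40%, 8.37% and 7.15% in the other spots. WT and 5m AS were processed with Space Ranger 1.2.1 and the other 4 libraries with 1.3.1, so that version and group cannot be told apart when 5m AS is set against the treated or 2m AS libraries. All libraries use the same set of spot barcodes, and 1993 to 4044 barcodes per library also occurred in another library.

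Collagen-high spots made up 18.0% of spots in 5m AS, and fewer in each of the other libraries. In early treated, 196 of 3398 spots belonged to them, or 5.77% (95% exact binomial interval 5.01% to 6.61%). Late treated held 108 of 2833 spots, 3.81% (3.14% to 4.58%). In 5m AS, 358 of 1989 spots belonged, 18.0% (16.3% to 19.8%). At 2 months, AS kidney held 29 of 3182 spots, 0.911% (0.611% to 1.31%). With Dcn left out of score A, 15 spots passed there, or 0.471%, so the 2m AS spots rest on Dcn in part. The mixed library held 1 of 3197 spots and WT 2 of 4085. The intervals cover counting error only, and since the limit was set on the pooled values, these shares follow from the rule. The limit on score B left out a further 100 spots in early treated, 60 in late treated, 41 in 5m AS, 39 in 2m AS, 0 in the mixed library and 1 in WT.

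**Figure D1:**
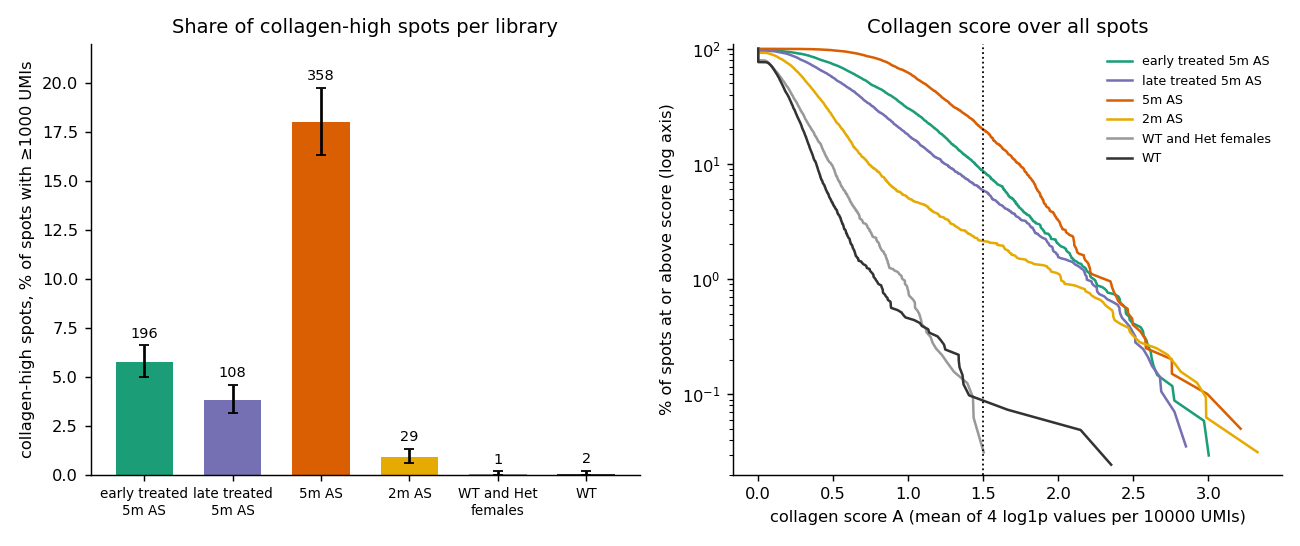
Left, percent of spots with at least 1000 UMIs that were collagen-high in each library, with 95% exact binomial intervals and the number of spots above each bar. Right, percent of spots (log axis) at or above each value of score A, with the limit of 1.496 dotted; 5m AS lies to the right of the other libraries, and WT and the mixed library hardly reach the limit.

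Only libraries with at least 20 collagen-high spots were compared, which left early treated, late treated, 5m AS and 2m AS. UMIs were summed over the collagen-high spots of a library and over its other spots. Sums were put on the CPM scale with TMM-adjusted library sizes (scaled CPM). Levels are compared within a gene, since counts were not divided by gene length. A gene was counted as tested when it reached 20 scaled CPM in 1 of the 2 pools and was called higher or lower at a ratio of at least 1.5-fold. Intervals in parentheses after a ratio are 95% exact counting intervals of the summed UMIs, which do not cover differences between animals or between spots. In the small 2m AS pool, 1 UMI equals 2.39 scaled CPM, and 3 UMIs, the floor used for genes at 0, equal 7.16. In these mixtures of cells, more cells of a type and more RNA per cell cannot be told apart.

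The 4 genes of score A were high in the collagen-high spots because they chose them, but in unequal proportions. Col1a1 (ENSMUSG00000001506, GRCm38 chr11:94936224-94953042, + strand), the first chain of collagen I, stood at 468 scaled CPM in early treated, 651 in late treated, 470.5 in 5m AS and 341 in 2m AS, against 130.5, 126, 193 and 38.0 in the other spots of these libraries. Col1a2 (chr6:4504814-4541544, +), the second chain, stood at 659.6 scaled CPM in early treated, 669 in late treated, 697 in 5m AS and 823 in 2m AS, against 208, 143, 289 and 105. Col3a1 (chr1:45311538-45349706, +) of collagen III stood at 638 scaled CPM in early treated, 603 in late treated, 740.0 in 5m AS and 732 in 2m AS, against 189, 117, 291 and 114. Across libraries these 3 collagens differed less than Dcn did. Dcn (chr10:97479609-97518143, +), which encodes the collagen-binding proteoglycan decorin, stood at 219 scaled CPM in early treated, 225 in late treated, 197 in 5m AS and 1605 in 2m AS, against 82.7, 63.6, 119.9 and 116. The 2m AS spots thus combined the most Dcn with the least Col1a1. In the spots of the mixed library and WT, Col1a1 was at 14.3 and 18.7 scaled CPM and Dcn at 38.5 and 34.2.

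The limit on score B did not leave the spots free of contractile genes. Acta2, smooth muscle actin, stood at 106 scaled CPM in early treated, 95.5 in late treated, 83.7 in 5m AS and 200.4 in 2m AS in collagen-high spots, against 97.1, 71.9, 57.3 and 70.1 in the other spots. In 2m AS all 4 genes of score B were at least 1.5-fold higher in the collagen-high spots, with 48% of the Acta2 UMIs in 3 of the 29 spots. In the 3 libraries of 5 months, Acta2 passed 1.5-fold in none, and Myh11, smooth muscle myosin, was at 9.93, 8.01 and 12.3 scaled CPM in early treated, late treated and 5m AS, against 19.7, 21.1 and 11.5 in the other spots.

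Promoters are shown for a collagen of score A and for 2 of the genes that led the collagen-high spots in all 4 libraries without being in the rule, Timp1 and Ltbp2. Sequences are from RefSeq, build GRCm38.p6, and run 5′ to 3′ on the gene's strand from 250 bases before to 50 bases after the start. Capitals mark CCAAT (the CCAAT box), CAGAC (the core of Smad sites) or TGANTCA (the AP-1 site) on either strand, with no overlap between them. Of the 4 genes of score A and the 15 leading genes, 14 of 19 were in the table.
Col1a2, chr6:4505368-4505667 (+): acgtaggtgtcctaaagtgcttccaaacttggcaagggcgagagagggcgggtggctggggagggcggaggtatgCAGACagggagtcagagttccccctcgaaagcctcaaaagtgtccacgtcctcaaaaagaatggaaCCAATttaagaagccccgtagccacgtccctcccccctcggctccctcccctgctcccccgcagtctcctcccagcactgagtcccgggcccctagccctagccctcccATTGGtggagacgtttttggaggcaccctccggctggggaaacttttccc
Timp1, chrX:20869916-20870215 (+): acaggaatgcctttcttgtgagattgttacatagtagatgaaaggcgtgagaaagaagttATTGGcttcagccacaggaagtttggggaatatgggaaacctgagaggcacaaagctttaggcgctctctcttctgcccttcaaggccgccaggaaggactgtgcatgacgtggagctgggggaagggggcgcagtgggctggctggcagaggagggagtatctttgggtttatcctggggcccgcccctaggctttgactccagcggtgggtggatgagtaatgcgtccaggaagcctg
Ltbp2, chr12:84876442-84876741 (-): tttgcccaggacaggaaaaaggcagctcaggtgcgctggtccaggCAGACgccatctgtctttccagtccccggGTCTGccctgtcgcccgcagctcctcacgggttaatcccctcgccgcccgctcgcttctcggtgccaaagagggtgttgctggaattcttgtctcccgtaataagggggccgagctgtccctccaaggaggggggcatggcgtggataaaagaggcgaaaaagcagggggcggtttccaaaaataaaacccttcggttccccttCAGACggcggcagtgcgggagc
The Col1a2 window held CCAAT at 2 places and CAGAC at 1, the Timp1 window CCAAT at 1, and the Ltbp2 window CAGAC at 3. None of these windows held TGANTCA. Over all 32851 promoters of the same length, CCAAT occurred in 37.4%, CAGAC in 49.6% and TGANTCA in 7.81%. A match describes the letters of a window and is no evidence of binding.

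Of 6442 genes tested in all 4 libraries, 185 (2.87%) were at least 1.5-fold higher in collagen-high spots in every library and 515 (7.99%) were lower in every library. Without 2m AS the counts were 273 and 590 of 6809. Among the 15 genes with the highest ratio in the library where that ratio was smallest were Ltbp2, Serpina3n, Timp1, Mfap5, Tnc, Thbs2, Col5a1, Serpine2, Havcr1, Fn1, Aldh1a2, Sema3d, Cd44 and Cldn4. They were ranked on the same contrast that chose the spots, so their ratios are descriptions. Most encode matrix proteins, protease inhibitors or secreted ligands, while Havcr1, Cd44 and Cldn4 are tubule cell genes or markers of tubular injury.

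Timp1 (chrX:20870166-20874735, +), an inhibitor of matrix metalloproteinases, stood at 207 scaled CPM in early treated, 102 in late treated, 216 in 5m AS and 107 in 2m AS, against 51.5, 19.1, 70.7 and 11.9 in the other spots. Each collagen-high pool lay above every pool of other spots, and the ratios were 4.03 (3.64 to 4.44), 5.33 (4.50 to 6.29), 3.06 (2.89 to 3.24) and 9.01 (6.51 to 12.2) in the same order of libraries. In WT and in the mixed library Timp1 was nearly absent, at 1.12 and 4.69 scaled CPM. Ltbp2 (chr12:84783212-84876532, -), a protein of elastic microfibrils related to the binders of latent TGF-beta, stood at 138 scaled CPM in early treated, 136 in late treated, 149.8 in 5m AS and 33.4 in 2m AS, against 34.3, 15.8, 47.6 and 5.55. Here the 3 libraries of 5 months were alike in their collagen-high spots, while the 2m AS level rested on 14 UMIs in 7 spots. Tnc, the matrix glycoprotein tenascin C of healing and remodelling tissue, stood at 67.3 scaled CPM in early treated, 57.9 in late treated, 73.9 in 5m AS and 33.4 in 2m AS, against 26.4, 14.3, 28.4 and 4.10. All 3 genes kept this order in every library, collagen-high above other spots.

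**Figure D2:**
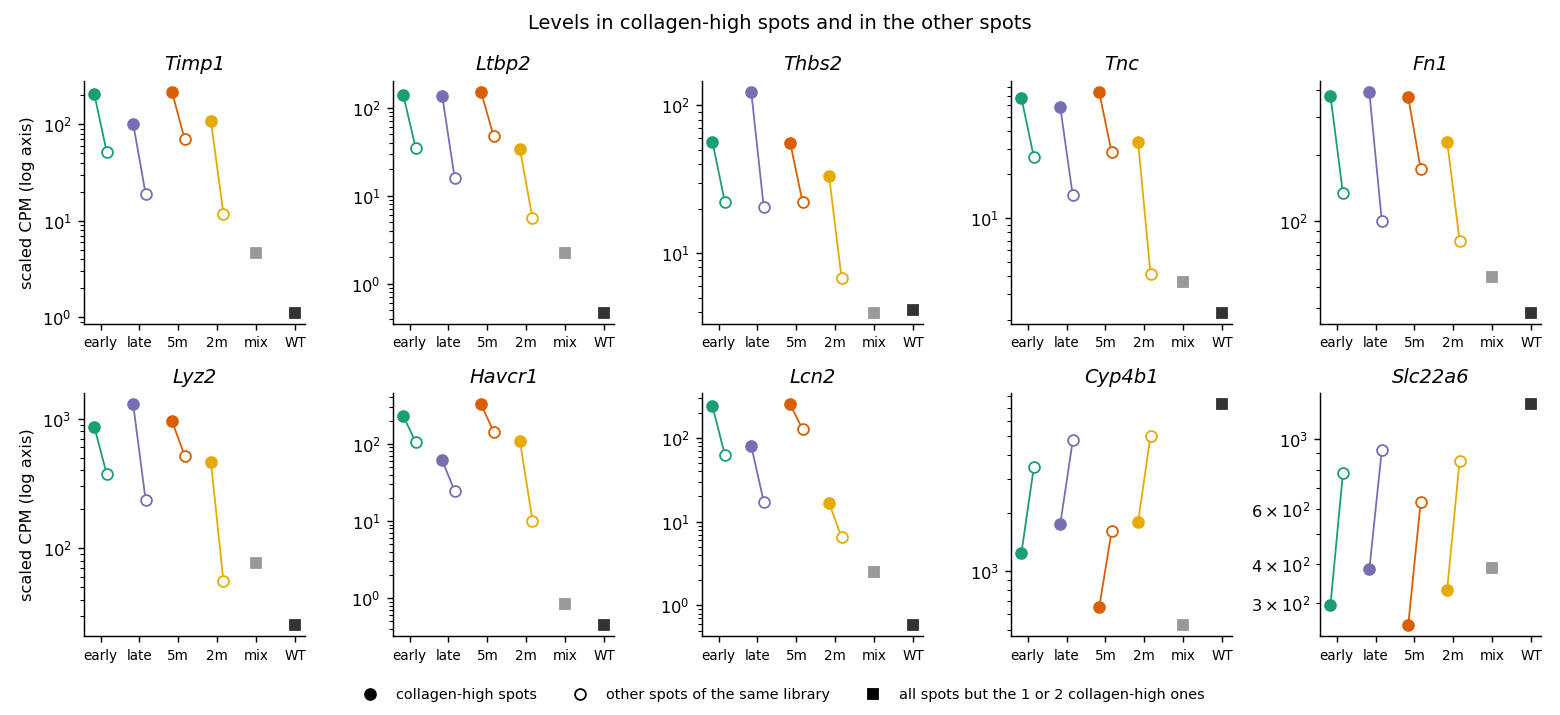
Scaled CPM (log axis) of 10 genes in collagen-high spots (filled circles) and in the other spots (open circles) of the 4 compared libraries, with the level over all spots but the 1 or 2 collagen-high ones in the mixed library and WT (squares). Timp1, Ltbp2, Thbs2, Tnc, Fn1, Lyz2, Havcr1 and Lcn2 were higher in the collagen-high spots of each library, and Cyp4b1 and Slc22a6 were lower.

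Fibroblast genes outside the rule were higher in the collagen-high spots, and most of all in 2m AS. In early treated, 11 of 12 tested genes of an 18-gene fibroblast list were at least 1.5-fold higher and 1 was lower (median log2 ratio 0.82). In late treated 14 of 15 were higher (1.53), in 5m AS 6 of 14 (0.56) and in 2m AS 16 of 17 (2.88), with none lower. Over all tested genes, 7.47%, 11.2%, 5.22% and 11.9% were higher and 16.0%, 21.9%, 9.79% and 32.3% were lower in these comparisons, with medians of -0.13, -0.19, -0.12 and -0.33. With plain CPM in place of the scaled CPM those medians were 0.17, 0.19, 0.15 and 0.07. The higher and lower counts under plain CPM were 1476 and 450 in early treated, 2015 and 513 in late treated, 835 and 198 in 5m AS, and 1476 and 721 in 2m AS. Under the scaled CPM they were 552 and 1180, 846 and 1652, 378 and 709, and 882 and 2397.

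Pdgfrb, the PDGF receptor of pericytes and fibroblasts, stood at 108 scaled CPM in early treated, 145 in late treated, 93.9 in 5m AS and 71.6 in 2m AS, against 57.9, 60.8, 61.9 and 40.4 in the other spots. Mfap5, a microfibril protein, stood at 28.9 scaled CPM in early treated, 45.0 in late treated, 30.3 in 5m AS and 97.8 in 2m AS, against 7.86, 6.34, 11.4 and 4.21. Both were higher in all 4 libraries. Gsn, the actin-severing protein gelsolin, stood at 173 scaled CPM in early treated, 174 in late treated, 164 in 5m AS and 930.2 in 2m AS, against 114, 103, 149 and 94.8, and was 9.81-fold higher in 2m AS and 1.10-fold in 5m AS. Lum, the proteoglycan lumican, stood at 19.4 scaled CPM in early treated, 35.1 in late treated, 25.1 in 5m AS and 188 in 2m AS, against 9.52, 7.37, 18.0 and 6.09, with 70% of the late treated UMIs in 3 spots. The exception of the list was Dpep1, a dipeptidase that is also a gene of proximal tubule cells, at 113 scaled CPM in the collagen-high spots of early treated and 176 in its other spots.

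Genes of a list for activated fibroblasts followed the same direction, with 7 of 8 tested genes higher in early treated (median log2 ratio 1.06), 9 of 10 in late treated (1.64), 8 of 9 in 5m AS (0.89) and 10 of 10 in 2m AS (2.48). The list is not specific to these cells, since it holds Spp1, which is also in the tubular injury list used below. Mgp, matrix Gla protein and a calcification inhibitor, stood at 5717 scaled CPM in early treated, 5666 in late treated, 5873 in 5m AS and 6447 in 2m AS, against 2572, 1637, 3377 and 1269. Postn and Cthrc1 are genes often used to mark myofibroblasts. Postn, which encodes periostin, stood at 3.88 scaled CPM in early treated, 4.93 in late treated, 5.24 in 5m AS and 33.4 in 2m AS, against 1.12, 0.930, 2.17 and 1.69 in the other spots. Cthrc1 stood at 0.863 scaled CPM in early treated, 0.616 in late treated, 1.44 in 5m AS and 2.38 in 2m AS. Lrrc15 had no UMI in the collagen-high spots of early treated, late treated and 2m AS, and 1 UMI in those of 5m AS.

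Collagens outside the rule were also higher. Of 14 genes of collagens IV to XVIII, 11 of 13 tested passed 1.5-fold in early treated (median log2 ratio 1.10), 13 of 13 in late treated (1.58), 11 of 13 in 5m AS (0.77) and 10 of 11 in 2m AS (1.60), and none was lower. Col5a1, of the collagen V that starts collagen I fibrils, stood at 64.3 scaled CPM in early treated, 74.5 in late treated, 72.9 in 5m AS and 62.0 in 2m AS, against 23.9, 20.1, 32.5 and 12.3 in the other spots. Col15a1, of a basement membrane zone collagen, stood at 147 scaled CPM in early treated, 179.8 in late treated, 202 in 5m AS and 45.3 in 2m AS, against 59.4, 58.3, 109.6 and 25.1. Col4a1, a chain of the general basement membrane network, stood at 508 scaled CPM in early treated, 552 in late treated, 526 in 5m AS and 336 in 2m AS, against 288, 255, 344 and 195. The collagen XV level of the 2m AS spots lay below that of the other spots of 5m AS.

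Of 20 matrix glycoprotein and proteoglycan genes, 12 of 17 tested were higher in early treated (median log2 ratio 1.04), 15 of 17 in late treated (1.53), 11 of 17 in 5m AS (0.78) and 15 of 17 in 2m AS (1.53). Fn1, fibronectin, stood at 375 scaled CPM in early treated, 389.9 in late treated, 370.5 in 5m AS and 231 in 2m AS, against 134, 99.9, 173 and 81.4. Bgn, the proteoglycan biglycan, stood at 1012 scaled CPM in early treated, 1498 in late treated, 1073 in 5m AS and 639 in 2m AS, against 522, 504, 624 and 222. Thbs2, the matricellular protein thrombospondin 2, stood at 57.0 scaled CPM in early treated, 123 in late treated, 55.9 in 5m AS and 33.4 in 2m AS, against 22.3, 20.6, 22.2 and 6.83. For Thbs2 the late treated spots were the highest of the 4, with 16% of its UMIs in 3 spots. Efemp1 and Lamb1 passed 1.5-fold in none of the 4 libraries.

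The enzymes that fold and crosslink collagen differed less than the collagens. Of 16 matched genes, 7 of 16 tested were higher in early treated (median log2 ratio 0.37), 9 of 15 in late treated (0.72), 4 of 16 in 5m AS (0.27) and 5 of 12 in 2m AS (0.37). Lox, lysyl oxidase, stood at 37.6 scaled CPM in early treated, 43.7 in late treated, 38.8 in 5m AS and 9.54 in 2m AS, against 13.9, 9.65, 16.2 and 5.59, and Bmp1, which cleaves the procollagen end, stood at 53.1 scaled CPM in early treated, 63.4 in late treated, 68.7 in 5m AS and 40.5 in 2m AS, against 26.5, 17.9, 35.9 and 12.6. Both passed 1.5-fold in the 3 libraries of 5 months. P4hb, a subunit of prolyl hydroxylase with general folding roles, was not among the genes that passed, at 396 scaled CPM in early treated, 416 in late treated, 452 in 5m AS and 296 in 2m AS, against 524, 562, 583 and 412.

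Among proteases and inhibitors, 6 of 11 tested genes were higher in early treated (0.66), 8 of 11 in late treated (1.51), 5 of 11 in 5m AS (0.56) and 8 of 10 in 2m AS (1.43), where Plau, the urokinase gene, was lower with 11 UMIs. Mmp2, gelatinase A, stood at 80.7 scaled CPM in early treated, 151 in late treated, 80.6 in 5m AS and 47.7 in 2m AS, against 40.0, 32.2, 48.7 and 12.3. Timp3, an inhibitor made by many kidney cells, lay the other way, at 875 scaled CPM in early treated, 959.6 in late treated, 605 in 5m AS and 773 in 2m AS, against 1225, 1313, 737 and 1143, with ratios of 0.714, 0.731, 0.821 and 0.676.

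In the growth factor list, ligands and their targets were raised unevenly, with 10 of 17 tested genes higher and 1 lower in early treated (0.62), 11 of 17 higher in late treated (0.73), 6 of 17 in 5m AS (0.49) and 8 of 15 in 2m AS (0.60). Tgfb1, the main profibrotic TGF-beta ligand, stood at 35.0 scaled CPM in early treated, 50.5 in late treated, 62.6 in 5m AS and 4.77 in 2m AS, against 18.9, 21.2, 37.5 and 12.3, with 2 UMIs in 2m AS. Pdgfb, the ligand of Pdgfrb, stood at 84.6 scaled CPM in early treated, 46.8 in late treated, 109.9 in 5m AS and 38.2 in 2m AS, against 49.4, 28.4, 57.7 and 25.2. Ccn2, connective tissue growth factor, stood at 436 scaled CPM in early treated, 312 in late treated, 303 in 5m AS and 282 in 2m AS, against 281, 162, 197 and 140.1. Igfbp4, a binder of insulin-like growth factors, was the 1 lower gene, at 578 scaled CPM in the collagen-high spots of early treated and 912 in its other spots.

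Macrophage genes were higher in every compared library, without exception among those tested. All 13 tested genes of a 14-gene list passed 1.5-fold in early treated (median log2 ratio 1.10), all 13 in late treated (1.98), all 13 in 5m AS (0.86) and all 10 in 2m AS (1.92). Lyz2, lysozyme M of macrophages and monocytes, stood at 864 scaled CPM in early treated, 1288 in late treated, 955 in 5m AS and 460.3 in 2m AS, against 373, 235, 519 and 55.4 in the other spots and 76.4 in the mixed library and 25.5 in WT. C1qa, a chain of complement C1q made by tissue macrophages, stood at 256 scaled CPM in early treated, 362 in late treated, 326 in 5m AS and 146 in 2m AS, against 117, 91.7, 179.8 and 37.8. Cd163, a scavenger receptor of some resident macrophages, was near 0, with the highest level of 2.38 in 2m AS, 1 UMI. The list summed to 2374, 3308, 2924 and 1534 scaled CPM in the collagen-high spots of early treated, late treated, 5m AS and 2m AS, against 1070, 758, 1603 and 338 in their other spots. The part of these cells in the other differences was not tested.

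Per spot, 65.8% of the collagen-high spots of early treated, 67.6% of late treated, 83.0% of 5m AS and 31.0% of 2m AS had a macrophage score at or above the pooled 90th percentile, against 17.2%, 8.33%, 32.6% and 0.634% of the other spots. With every spot thinned to 5000 UMIs, shallower spots left out and the collagen-high spots chosen again, the shares were 55.9%, 68.1%, 70.5% and 23.7%, against 17.8%, 8.68%, 35.1% and 0.562%. The collagen-high spots had the larger share in each library under both settings.

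Class II antigen presentation genes were higher in 6 of 6 tested genes in early treated (median log2 ratio 0.89), 7 of 7 in late treated (1.67), 3 of 6 in 5m AS (0.59) and 6 of 6 in 2m AS (1.78). Cd74, the class II invariant chain, stood at 1596 scaled CPM in early treated, 2366 in late treated, 2673 in 5m AS and 1224 in 2m AS, against 817, 711, 1655 and 369.8. Of the complement genes, C3, the central component, stood at 545 scaled CPM in early treated, 347 in late treated, 693 in 5m AS and 215 in 2m AS, against 303, 136, 395 and 27.8, and Serping1, the C1 inhibitor, at 349.7 scaled CPM in early treated, 428 in late treated, 406 in 5m AS and 716 in 2m AS, against 198, 129.9, 275 and 109. Cfb, complement factor B, lay the other way, at 275 scaled CPM in early treated, 259 in late treated, 303 in 5m AS and 157 in 2m AS, against 419, 403, 351 and 319. Of the 8 tested complement genes, 5 were higher and 1 lower in early treated, 5 and 1 in late treated, 2 and 0 in 5m AS, and 7 and 1 in 2m AS, Cfb being the lower one in each of these 3 (medians 0.73, 1.24, 0.53 and 1.95).

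Chemokine genes were higher in 3 of 9 tested in early treated (0.52), 6 of 7 in late treated (1.06), 6 of 9 in 5m AS (0.77) and 6 of 6 in 2m AS (1.3). Ccl8, a monocyte attractant, stood at 41.4 scaled CPM in early treated, 67.8 in late treated, 44.0 in 5m AS and 146 in 2m AS, against 15.9, 11.2, 23.9 and 3.80, with 52% of the 2m AS UMIs in 3 spots. T and natural killer cell genes summed to 162, 154, 141 and 260.0 scaled CPM in the collagen-high spots of early treated, late treated, 5m AS and 2m AS, against 87.0, 48.2, 85.8 and 38.9 in the other spots. Of these sums, Ccl5, a chemokine, gave 99.3, 65.3, 82.2 and 200.4 scaled CPM in the collagen-high spots. Cd3d and Cd3e of the T cell receptor complex stood between 2.38 and 9.24 scaled CPM in all 4 collagen-high pools. Ighm, immunoglobulin M, reached 419 scaled CPM in 5m AS, against 148 in its other spots, but 77% of those UMIs came from 3 of 358 spots. Without these spots, and with the other spots not trimmed, the ratio was 0.663.

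Markers of tubular injury were partly raised in the collagen-high spots. Of 16 genes, 7 of 13 tested were higher in early treated (median log2 ratio 1.11), 9 of 14 in late treated (1.16), 8 of 14 in 5m AS (0.75) and 6 of 10 in 2m AS (1.03), where Plin2, a lipid droplet gene, was lower. Havcr1 (chr11:46735080-46779578, +), the proximal tubule injury protein KIM-1, stood at 227 scaled CPM in early treated, 61.0 in late treated, 324 in 5m AS and 107 in 2m AS, against 105, 24.5, 143 and 10.1, with 87% of the 2m AS UMIs in 3 spots. Lcn2 (chr2:32384633-32388252, -), the tubule-secreted protein NGAL, stood at 240.5 scaled CPM in early treated, 80.1 in late treated, 252 in 5m AS and 16.7 in 2m AS, against 63.3, 17.4, 127 and 6.55. Sox9, a factor of repairing tubule cells, stood at 22.9 scaled CPM in early treated, 20.3 in late treated, 28.5 in 5m AS and 0 in 2m AS, against 10.3, 5.28, 11.8 and 0.541. In the mixed library and WT, Havcr1 was at 0.842 and 0.450 scaled CPM.

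Injury and collagen did not mark the same spots throughout. A score over Havcr1 and Lcn2 reached its pooled 95th percentile in 69 of the 196 collagen-high spots of early treated (35.2%), 10 of 108 in late treated (9.26%), 192 of 358 in 5m AS (53.6%) and 3 of 29 in 2m AS (10.3%), against 9.84%, 1.5%, 18.0% and 0.349% of the other spots. All spots past that limit were then left out, an alternative chosen after seeing the data. The summed macrophage level was higher in the remaining collagen-high spots than in the remaining other spots, by 1.15, 2.23, 0.99 and 2.15 on the log2 scale. Tubular injury genes also summed higher there, by 0.77, 0.435, 0.26 and 0.61, so the cut did not make injury equal. The part of injury in these differences was not tested. The summed fibroblast list was higher in the same spots by 0.79, 1.25, 0.66 and 2.57. In the collagen-high spots past that limit, the fibroblast list summed to 811.4 scaled CPM in early treated and 1060 in 5m AS. The other spots below the limit held 811.5 and 886.4, so in early treated the fibroblast difference was absent from the collagen-high spots with injury. Late treated and 2m AS had too few such spots to sum.

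Genes of the proximal tubule, the segment that takes back most of the filtrate, were lower in the collagen-high spots. Of 12 genes of its early part, 11 of 12 tested were at least 1.5-fold lower in early treated (median log2 ratio -1.10), 11 of 12 in late treated (-1.10), 9 of 11 in 5m AS (-0.89) and 10 of 12 in 2m AS (-1.04). Slc34a1, the phosphate transporter, stood at 2150 scaled CPM in early treated, 2812 in late treated, 1432 in 5m AS and 2061 in 2m AS, against 4683, 5978, 3064 and 4865. Lrp2, the endocytic receptor megalin, stood at 356 scaled CPM in early treated, 413 in late treated, 372 in 5m AS and 570.1 in 2m AS, against 879.5, 993, 699 and 1290. Late proximal tubule genes were lower in 7 of 7, 7 of 7, 8 of 10 and 10 of 10 tested in early treated, late treated, 5m AS and 2m AS, with medians of -1.43, -1.49, -0.86 and -1.46.

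The 10 genes with the lowest ratio in the library where that ratio was highest were Ces1g, Ces1e, Pzp, Slco1a1, Cyp4b1, Slc22a6, Slc13a3, Car4, Cyp2e1 and Ces1f, most of them metabolic or transport genes of the proximal tubule. Cyp4b1, a cytochrome P450, stood at 1244 scaled CPM in early treated, 1762 in late treated, 654 in 5m AS and 1801 in 2m AS, against 3459, 4737, 1615 and 5008. Slc22a6, the organic anion transporter OAT1, stood at 296 scaled CPM in early treated, 385 in late treated, 256 in 5m AS and 332 in 2m AS, against 777, 923, 632 and 852, with ratios of 0.381 (0.353 to 0.411), 0.417 (0.385 to 0.452), 0.405 (0.388 to 0.422) and 0.389 (0.327 to 0.459). The libraries were alike in this, with the collagen-high level below the other spots in each. Ces1g, Ces1e, Ces1f, Pzp, Slco1a1 and Cyp2e1 were also at most 65.0 scaled CPM in the mixed library of females, against at least 103 in WT. Cyp4b1 stood at 529 and 7274 in these libraries and Slc22a6 at 388.5 and 1289. Slc13a3 and Car4 differed less, at 993 and 1035 and at 178 and 243.5.

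Thick ascending limb genes were lower as well, in 5 of 7 tested in early treated (-1.02), 7 of 7 in late treated (-1.35), 8 of 8 in 5m AS (-0.86) and 5 of 8 in 2m AS (-0.67). Umod, uromodulin, stood at 1987 scaled CPM in early treated, 1271 in late treated, 3217 in 5m AS and 3179 in 2m AS, against 2854, 2725, 5092 and 4154. Egf, whose kidney source is the distal nephron, stood at 111 scaled CPM in early treated, 108 in late treated, 107 in 5m AS and 594 in 2m AS, against 323, 435, 276 and 932. Both lay lower in the collagen-high spots of each library, although Umod passed 1.5-fold only in late treated and 5m AS.

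Distal convoluted tubule genes split the libraries. They were lower in 1 of 6 tested in early treated (median log2 ratio -0.26), 5 of 6 in late treated (-1.0) and 3 of 5 in 5m AS (-0.70), but higher in 5 of 6 in 2m AS (0.98). In early treated the sign turned with plain CPM, to 0.04. Slc12a3, the thiazide-sensitive transporter, stood at 428 scaled CPM in early treated, 292 in late treated, 178 in 5m AS and 1033 in 2m AS, against 610.3, 718, 289 and 482. Calb1, the calcium binder calbindin, stood at 616 scaled CPM in early treated, 341 in late treated, 118 in 5m AS and 1233 in 2m AS, against 564, 688, 209.9 and 362. In 2m AS, 3 of the 29 spots held 57% of the Slc12a3 UMIs and 86% of the Calb1 UMIs. Without each gene's 3 highest collagen-high spots the 2m AS ratios were 1.03 for Slc12a3 and 0.515 for Calb1. The pool of other spots was not trimmed, so leaving these spots out can lower a ratio but not raise it.

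**Figure D3:**
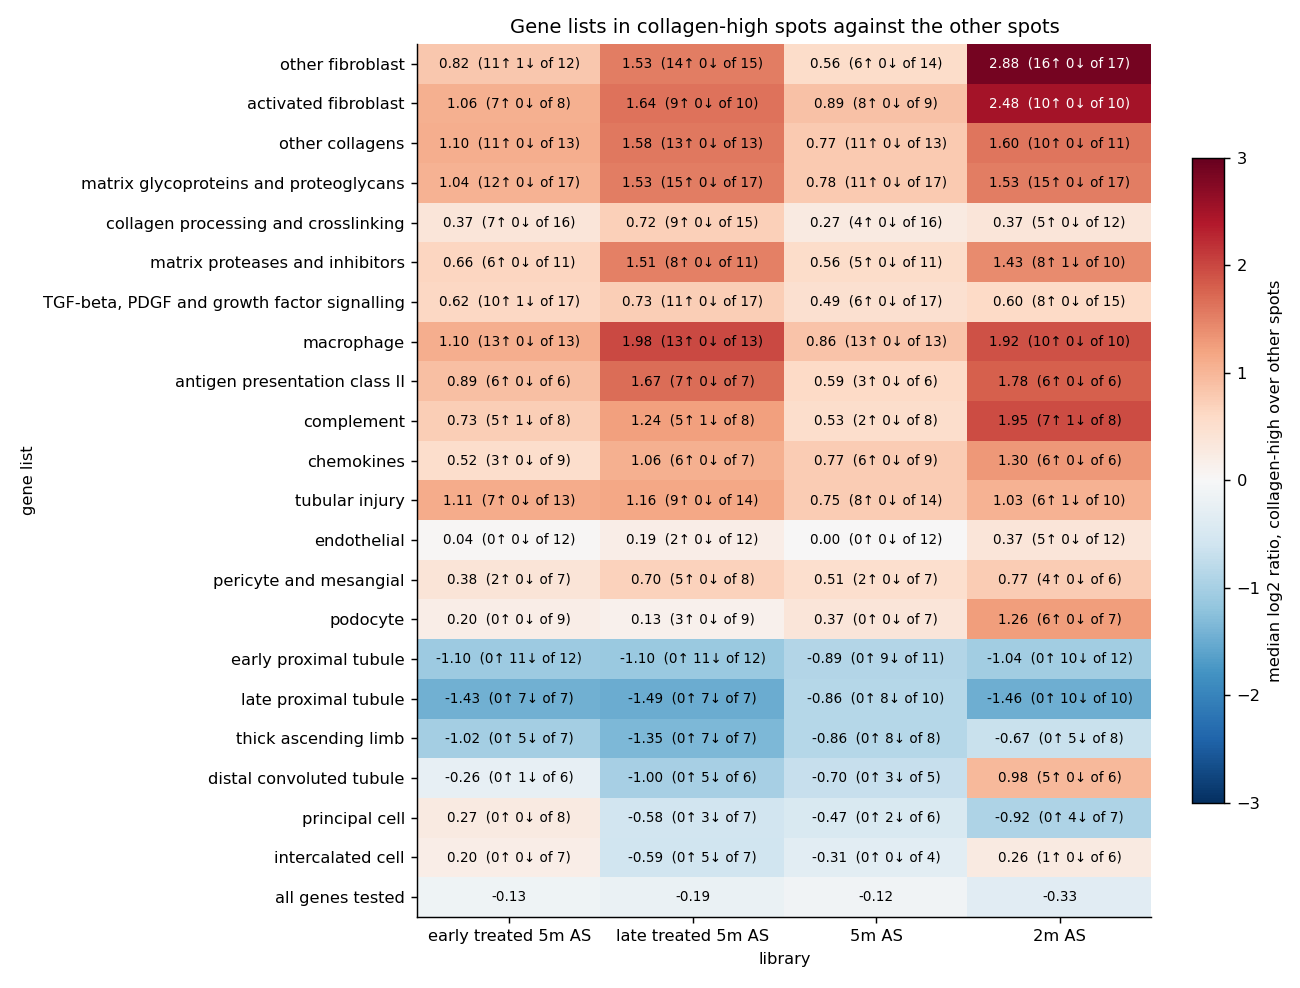
Median log2 ratio of collagen-high over other spots for 21 gene lists (rows) in the 4 compared libraries (columns), with the number of genes at least 1.5-fold higher and lower of those tested in each cell and all tested genes in the last row. Fibroblast, collagen, matrix and macrophage lists were positive in all 4 libraries, proximal tubule and thick ascending limb lists negative in all 4, and the distal convoluted tubule list positive in 2m AS alone.

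Among the other cell types of the kidney, endothelial genes passed 1.5-fold in 0 of 12 tested in early treated, 2 of 12 in late treated, 0 of 12 in 5m AS and 5 of 12 in 2m AS. Pecam1, an adhesion protein of all endothelium, stood at 45.8 scaled CPM in early treated, 63.4 in late treated, 44.6 in 5m AS and 73.9 in 2m AS, against 42.8, 55.9, 44.9 and 40.9. Podocyte genes were higher in 0 of 9, 3 of 9, 0 of 7 and 6 of 7 tested, with 72% to 100% of the 2m AS UMIs of Nphs1, Podxl and Wt1 in 3 spots. Urothelial genes summed to 0.863, 2.46, 6.58 and 0 scaled CPM in the collagen-high spots, against 1.81, 1.69, 8.42 and 8.18 in the other spots, so RNA of the epithelium of the renal pelvis was hardly present. Lymphatic endothelial genes summed to 67.3, 71.4, 38.5 and 88.2 scaled CPM in the collagen-high spots of early treated, late treated, 5m AS and 2m AS, against 42.5, 42.7, 29.9 and 15.4 in the other spots. Nerve and glia genes summed to 28.1, 28.3, 21.3 and 47.7, against 14.0, 14.7, 16.2 and 10.1, so that both sums were furthest apart in 2m AS. Principal cell genes were called in none of 8 in early treated and lower in 3 of 7 in late treated, 2 of 6 in 5m AS and 4 of 7 in 2m AS.

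The rule cut a gradient. The other spots of each library were split into 4 equal bins by score A, and the collagen-high spots into a lower and an upper part at their median score. In 5m AS, macrophage genes summed to 1161, 1367, 1566 and 2015 scaled CPM over these bins and to 2364 and 3379 in the lower and upper collagen-high spots. In late treated the series was 428, 520.2, 655, 1313, 2520 and 3742. Early proximal tubule genes ran the other way in 5m AS, at 8000, 5983, 5006, 4232, 3509 and 2379. Both lists thus already differed between spots that did not reach the limit. Score A itself rests on a share of all UMIs, so that other genes' shares are not independent of it.

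**Figure D4:**
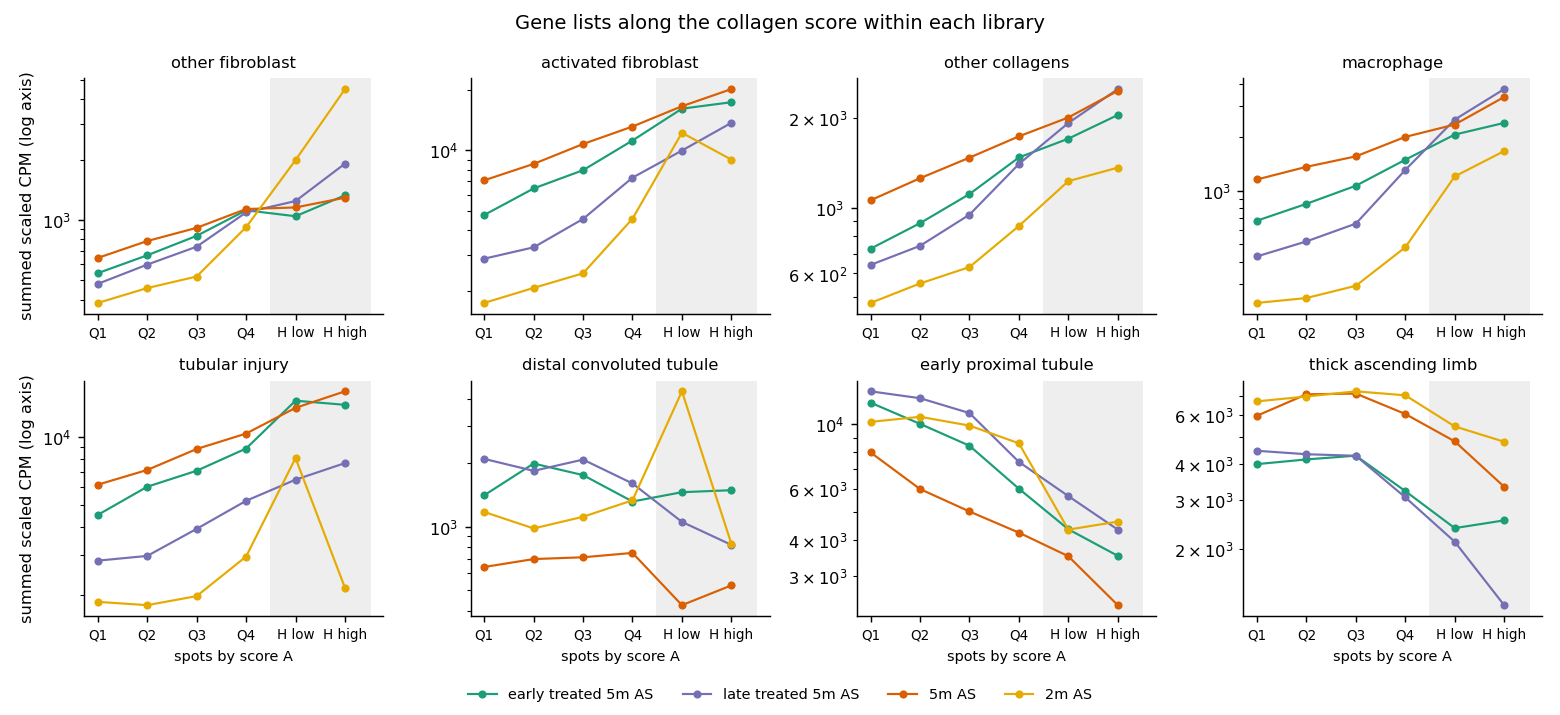
Summed scaled CPM (log axis) of 8 gene lists in 4 equal bins, Q1 to Q4, of the other spots by score A and in the collagen-high spots below and above their median score (H low and H high, shaded), for the 4 compared libraries. Macrophage genes climbed and early proximal tubule genes declined along the score in the libraries of 5 months, while in 2m AS tubular injury and distal convoluted tubule genes peaked in H low. H low of 2m AS held only 14 spots.

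Within 2m AS the upper 15 and the lower 14 collagen-high spots differed in genes outside the rule. Pi16, a gene of adventitial fibroblasts, stood at 233 scaled CPM in the upper and 32.5 in the lower spots, and Sfrp4, a secreted Wnt modulator, at 349 and 40.6. Both fibroblast genes were thus higher in the upper spots. Tubule genes lay the other way: Slc12a3 stood at 305 in the upper and 1503 in the lower spots, Havcr1 at 4.85 and 179, and Spp1, the phosphoprotein osteopontin, at 1304 and 5878. As given above, a few spots held most of the Slc12a3 and Havcr1 UMIs of 2m AS, so these differences rest largely on a few spots. In 5m AS, Havcr1 stood at 327 in the upper and 309 in the lower spots, while macrophage and early proximal tubule genes differed between these spots as given above.

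Set against the arterial spots of the same library, those at or above the limit on score B, the collagen-high spots had fewer contractile genes by construction. Of all tested genes, 3.21% were higher and 4.75% lower in early treated, 5.40% and 5.79% in late treated, 3.40% and 4.16% in 5m AS, and 10.2% and 12.5% in 2m AS. Macrophage genes were higher in 10 of 13 tested in early treated, 12 of 13 in late treated, 0 of 13 in 5m AS and 9 of 10 in 2m AS. Fibroblast genes outside the rule summed to 1253, 1665 and 1245 scaled CPM in early treated, late treated and 5m AS. Arterial spots held more of them, at 1578, 1832 and 1598, but fewer in 2m AS, at 2711 against 3385. Matrix glycoprotein and proteoglycan genes summed to 3458, 4325, 3415 and 2648 in the 4 libraries, against 3154, 3329, 3363 and 2604 in arterial spots. Timp1 stood at 207 scaled CPM in early treated, 102 in late treated, 216 in 5m AS and 107 in 2m AS in collagen-high spots, against 93.1, 37.1, 189.5 and 30.8 in arterial spots. For Timp1 and macrophage genes these pools were thus the most alike in 5m AS, while the fibroblast sums were closest in late treated. Many arterial spots reached the limit on score A as well. They were 100 of 251 in early treated, 60 of 141 in late treated, 41 of 64 in 5m AS and 39 of 86 in 2m AS. The part of this overlap in the likeness was not tested. Dcn was at 219, 225 and 197 in the collagen-high spots of early treated, late treated and 5m AS, against 278, 363 and 281 in arterial spots, but at 1605 against 936 in 2m AS.

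Set against injured tubule spots that were not collagen-high, the collagen-high spots held more matrix and fewer loop genes in the 3 libraries of 5 months. In 2m AS only 11 such spots existed, too few to compare. Of all tested genes, 4.67% were higher and 4.44% lower in early treated, 12.2% and 13.0% in late treated, and 2.62% and 1.85% in 5m AS. Fibroblast genes outside the rule were higher in 10 of 12 tested in early treated, 14 of 15 in late treated and 6 of 14 in 5m AS. The activated fibroblast list, which holds Spp1, summed to 17730, 12530 and 18720 scaled CPM in the collagen-high spots of these libraries. In the injured spots it summed to 18950, 19300 and 15900, so it was higher in the collagen-high spots of 5m AS alone. Umod stood at 1987, 1271 and 3217 scaled CPM, against 3233, 4181 and 6176 in the injured spots, and thick ascending limb genes were lower in 2 of 7, 5 of 7 and 8 of 8. Ltbp2 stood at 138, 136 and 149.8, against 66.9, 46.4 and 65.7, a smaller difference than against all other spots in each of these libraries.

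Between ages, a larger share of genes passed 1.5-fold in the collagen-high spots than between treated and untreated 5m AS. The 2m AS pool was the smallest, with 474490 UMIs, against 1899495 in early treated and 1301869 in late treated. The part of its larger counting error in these shares was not tested. Of 7556 tested genes, 19.7% were higher and 20.3% lower in 5m AS than in 2m AS. The median log2 ratio over all tested genes was -0.03, and 0.32 with plain CPM, under which 2881 genes were higher and 635 lower in place of 1492 and 1533. Fibroblast genes outside the rule were lower in 13 of 17 tested and higher in none (median log2 ratio -1.69), with the 2m AS spots chosen in part by Dcn. Over the other spots of these libraries, where 10.4% of tested genes were higher and 23.6% lower, the same list was higher in 7 of 10 and lower in 1 (0.71).

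Several fibroblast genes were lower in 5m AS than in 2m AS. Dcn, a gene of the rule, was 0.123-fold (0.113 to 0.134) the 2m AS level in 5m AS. Gsn stood at 164 in 5m AS and 930.2 in 2m AS, Lum at 25.1 and 188, and Igfbp6, a binder of IGF-II, at 9.36 and 76.3. Sfrp4 stood at 4.63 and 196, 0.0237-fold (0.0161 to 0.0344), and Clec3b, the plasminogen-binding protein tetranectin, at 2.16 and 83.5, 0.0259-fold (0.0143 to 0.0457). In 2m AS, 17 of the 29 spots held a UMI of Sfrp4 and 14 one of Clec3b. These counts do not show how evenly the UMIs were spread, and Sfrp4 was higher in the upper spots by score A, as given above. Hhip, Scara5, F13a1, Rbp4, Mmrn1 and Pvalb completed the 8 largest differences in this direction, at 0.103, 0.617, 0.823, 2.47, 1.65 and 2.47 scaled CPM in 5m AS and 21.5, 26.2, 23.9, 66.8, 38.2 and 57.2 in 2m AS. These 8 genes were of mixed kinds, as Mmrn1 is a lymphatic endothelial gene and Pvalb a distal convoluted tubule gene. The spots are named by their rule and are not called fibrotic here.

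Injury, matrix and macrophage genes were among those higher in the collagen-high spots of 5m AS than of 2m AS. Tubular injury genes were higher in 12 of 14 tested (median log2 ratio 1.48, also with Sox9 at its bound), macrophage genes in 9 of 13 (1.0) and other collagens in 8 of 13, with 1 lower (0.77). Lcn2 stood at 252 in 5m AS and 16.7 in 2m AS, 15.1-fold (7.30 to 37.5). Ltbp2 was 4.49-fold (2.67 to 8.23) and Col15a1 4.47-fold (2.85 to 7.44) the 2m AS level. Each of these was higher at 5 months in the other spots too, at 19.3, 8.57 and 4.36 times the 2m AS level. Macrophage genes summed to 2924 in 5m AS and 1534 in 2m AS collagen-high spots. In the other spots they summed to 1603 and 338.5, so this difference was found outside the collagen-high spots as well, and was larger there. Genes without a UMI in the 2m AS spots gave lower bounds against 3 counts over that pool: the peptide gene Cck was at least 5.47-fold higher in 5m AS, the tubule factor Irx1 at least 4.17-fold, Sox9 at least 3.98-fold, the stretch-responsive Ankrd1 at least 3.35-fold, the ephrin receptor Epha2 at least 3.0-fold and endothelin 1 (Edn1) at least 2.89-fold. Bcat1, a branched-chain amino acid aminotransferase, had 1 UMI in 2m AS and a ratio of 27.6-fold (4.94 to 1093).

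**Figure D5:**
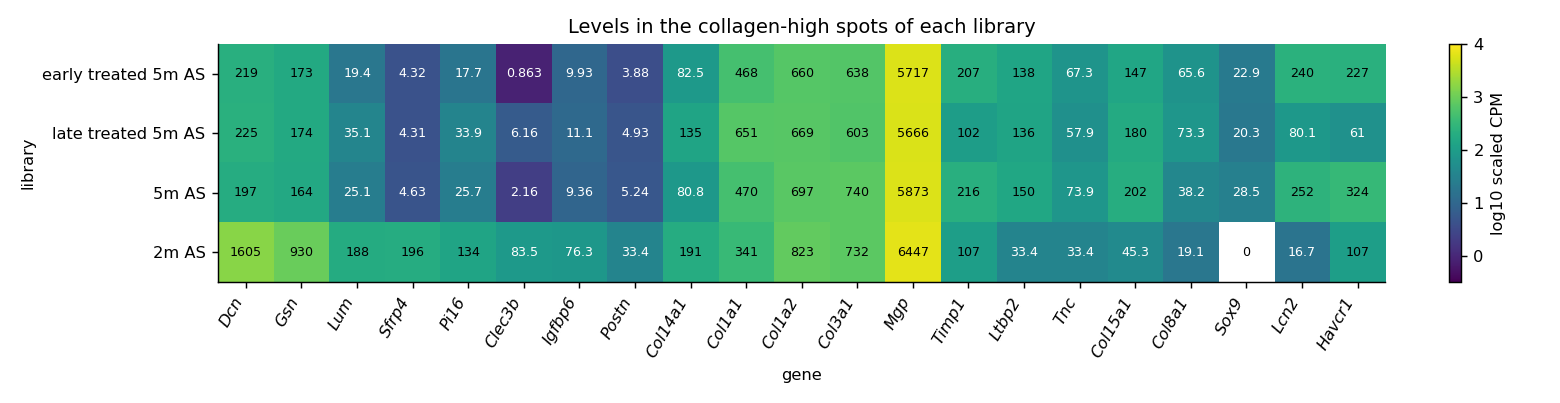
Scaled CPM of 21 genes in the collagen-high spots of the 4 compared libraries, with the colour on a log10 scale and genes without a UMI left white. Dcn, Gsn, Lum, Sfrp4, Pi16, Clec3b and Igfbp6 were highest in 2m AS, while Ltbp2, Col15a1, Sox9 and Lcn2 were lowest or without a UMI there.

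Treated 5m AS kidneys held fewer collagen-high spots than 5m AS, but the spots that passed the rule had similar collagen levels, which the common limit on score A favours. None of the 4 genes of score A differed by 1.5-fold from 5m AS in early treated or in late treated. Of all tested genes, 4.18% were higher and 5.13% lower in early treated than in 5m AS, and 8.52% higher and 9.85% lower in late treated. In the other spots the shares were 3.38% and 3.73% in early treated and 8.06% and 8.13% in late treated. Both comparisons share the 5m AS spots, and the Space Ranger versions cannot be told apart from the groups.

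In early treated, fibroblast, matrix and crosslinking genes of the collagen-high spots were close to 5m AS: 0 of 14, 0 of 17 and 0 of 16 tested genes passed 1.5-fold in either direction (median log2 ratios -0.02, -0.06 and -0.05, against -0.02 over all genes). Timp1 was 0.958-fold (0.866 to 1.06), Ltbp2 0.922-fold (0.815 to 1.04) and Lcn2 0.956-fold (0.871 to 1.05) the 5m AS level. In the other spots, the same ratios were 0.728, 0.720 and 0.500. Col8a1, a short-chain collagen, was the 1 other collagen higher in early treated, at 65.6 scaled CPM against 38.2 in 5m AS, while Col6a1 and Col6a2 of collagen VI were lower, at 58.3 and 53.5 against 114 and 104. Macrophage genes were lower in 2 of 13 tested in these spots (-0.35) and in 9 of 12 in the other spots (-0.68).

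In late treated, injury genes were lower in the collagen-high spots while several matrix genes were higher. Of the tubular injury genes, 11 of 14 were lower than in 5m AS and none was higher (median log2 ratio -0.83, against -0.01 over all genes), and 10 of 12 were lower in the other spots (-1.23). Havcr1 stood at 61.0 in late treated and 324 in 5m AS, 0.188-fold (0.153 to 0.230). Timp1 was 0.470-fold (0.399 to 0.551) and Lcn2 0.318-fold (0.265 to 0.380) the 5m AS level. Fibroblast genes outside the rule were higher in 7 of 15 tested and lower in none (0.57), against 1 higher and 2 lower of 10 in the other spots (-0.19). Thbs2 stood at 123 and 55.9, 2.20-fold (1.86 to 2.60), and Mmp2 at 151 and 80.6, 1.87-fold (1.61 to 2.16). In the other spots the ratios of these 2 genes were 0.929 and 0.662. Fmod, the proteoglycan fibromodulin, was 2.83-fold (2.09 to 3.80) the 5m AS level, with 59% of its UMIs in 3 of 108 spots.

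Macrophage genes of the collagen-high spots passed 1.5-fold in 0 of 13 tested in late treated against 5m AS (0.15), but were lower in 12 of 12 in the other spots (-1.02). Lyz2 stood at 1288 in late treated and 955 in 5m AS collagen-high spots, and at 235 and 519 in the other spots. Lyz1, a second lysozyme gene, and Retnla, a gene of alternatively activated macrophages, were among the 8 highest ratios, at 28.9 and 50.5 scaled CPM in late treated and 6.07 and 12.3 in 5m AS, with 47% and 48% of the late treated UMIs in 3 spots.

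The largest differences between treated and untreated collagen-high spots lay mostly in tubule genes, and the other spots showed them too. G6pc, glucose-6-phosphatase, was 5.79-fold (4.72 to 7.12) the 5m AS level in early treated and 6.71-fold (5.42 to 8.32) in late treated, and 5.38 and 6.43 times in the other spots. Cyp24a1, which degrades active vitamin D, was 5.65-fold (4.18 to 7.68) and 20.9-fold (16.2 to 27.2), and 12.2 and 46.9 times in the other spots. Serpina1f, of the alpha-1-antitrypsin cluster, whose close copies can share reads, stood at 0.863 in early treated and 0.616 in late treated, against 231 in 5m AS. Slc22a19, an anion transporter of the late proximal tubule, had no UMI in either treated pool and 28.2 scaled CPM in 5m AS, at least 21.8-fold lower in early treated and 15.3-fold lower in late treated. In the mixed library of females and WT, Serpina1f also differed, at 267 and 16.8, and Slc22a19 at 136.5 and 16.05. G6pc and Cyp24a1 differed less there, at 333 and 189 and at 97.5 and 53.65. The part of sex was not tested. Early proximal tubule genes were higher in 7 of 12 tested in early treated (0.61) and 8 of 12 in late treated, where 1 was lower (0.97), and in 7 of 12 and 8 of 12 in the other spots (0.70 and 1.23). Late proximal tubule genes were lower in 7 of 10 tested in each treated library (-1.85 and -1.38), with 1 higher in each. In the other spots they were lower in 7 of 10 and 5 of 10, again with 1 higher in each (-1.01 and -0.54). Slpi, a secreted protease inhibitor, had the highest ratio in early treated, at 42.3 scaled CPM against 5.55 in 5m AS, but 83% of its UMIs came from 3 of 196 spots. The tubule differences were thus found outside the collagen-high spots as well.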

How the data were processed

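The deposited files held UMI counts per gene and spot (32285 genes) as whole numbers, not normalized. Per the file headers, the authors' counts came from Space Ranger 1.2.1 (2 libraries) or 1.3.1 (4 libraries), and the submitters' processing notes name mm10. The sources used here do not give strand handling, annotation or spot filters. Spot positions were not used, and the mixed library was kept as 1 sample. UMIs were summed per library over collagen-high, other, arterial and injured spots, scaled with TMM (edgeR 4.0.16, R 4.3.3) and compared as ratios with 95% Clopper-Pearson intervals of the binomial share. No test across replicates was possible. The code was tested on simulated data.

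The members and gene lists were chosen with earlier results of these data known. Named genes were those of both scores, the 15 highest and 10 lowest over all 4 libraries, the 8 largest each way between libraries, and members of the lists. Some of these genes are not reported here. Rankings left out predicted genes and those of ribosomes, mitochondria, haemoglobin, immunoglobulins and sex chromosome markers. Close paralogs, such as the Serpina1 genes and C4b, and overlapping genes share reads and are uncertain. Alternatives were plain CPM, DESeq2 1.42.0 size factors, equal weight per spot, a minimum of 10 scaled CPM, thinning to 5000 UMIs, score A without Dcn, no limit on score B, no UMI minimum, other spots of low score A, and spots without injury.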

Additional observations from a re-analysis of the deposited data

Results flagged for a closer look

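6 genes of the distal nephron lay in opposite directions in the collagen-high spots of different libraries, each by at least 1.5-fold against the other spots of its library. The differences between libraries were not tested. Calb1 was 0.495-fold in late treated, 0.560-fold in 5m AS and 3.41-fold in 2m AS. Slc12a3 was 0.407-fold, 0.615-fold and 2.15-fold in the same libraries, Klhl3, a regulator of that transporter, was 0.507-fold, 0.592-fold and 1.77-fold, and the kallikrein gene Klk1 was 0.439-fold, 0.633-fold and 1.73-fold. S100g, a calcium binder, was 0.556-fold in late treated and 2.14-fold in 2m AS, and Slc8a1, the sodium-calcium exchanger, was 0.630-fold and 2.64-fold. In 2m AS, 3 of the 29 spots held 86% of the Calb1 UMIs, 83% of Slc8a1, 66% of Klk1, S100g and Klhl3 and 57% of Slc12a3. Without each gene's 3 highest collagen-high spots the 2m AS ratios of Calb1, Slc12a3, Klk1, S100g, Klhl3 and Slc8a1 were 0.515, 1.03, 0.658, 0.816, 0.682 and 0.508. Since the other spots were not trimmed, this step can only lower ratios, and values below 1 are not evidence of a lower level.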

How the results depend on the processing

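No paired analysis was possible because each group had 1 library, and for the same reason no replicate was left out. Comparisons of collagen-high spots with WT were not run, since WT held 2 of them. Depth limits genes near 7.16 scaled CPM in 2m AS. The causes of the changes below were not tested, except that a lower minimum tests more genes, and that thinning and the left-out spots reduce the UMIs behind each value.

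Shares of collagen-high spots were 8.71%, 5.93%, 20.1% and 2.14% in early treated, late treated, 5m AS and 2m AS with no limit on score B, in place of 5.77%, 3.81%, 18.0% and 0.911%. Without Dcn in score A they were 6.74% in early treated, 0.471% in 2m AS and 0% in the mixed library. With libraries weighted equally they were 4.68% in early treated, 3.0% in late treated, 13.9% in 5m AS and 0% in the mixed library. Thinning gave macrophage shares of 55.9% in early treated and 70.5% in 5m AS and an injury share of 68.3% in 5m AS. That injury share counts collagen-high spots at or above the pooled 90th percentile of the tubular injury list score. It is a different measure from the score over Havcr1 and Lcn2 used above.

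Against the other spots, plain CPM gave 1476, 2015, 835 and 1476 genes higher and 450, 513, 198 and 721 lower in early treated, late treated, 5m AS and 2m AS, in place of 552, 846, 378 and 882 higher and 1180, 1652, 709 and 2397 lower. Equal weight per spot gave 1451, 2340, 854 and 1532 higher and 484, 681, 208 and 935 lower. The minimum of 10 scaled CPM gave 954, 1396, 615 and 1487 higher. Spots chosen after thinning gave 309 higher and 686 lower in early treated and 222 and 295 in 5m AS. Other spots of low score A gave 579 higher and 1128 lower in 5m AS, and leaving out injury spots gave 443 lower there.

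For collagen-high spots of 5m AS against 2m AS, plain CPM gave 2881 higher and 635 lower in place of 1492 and 1533, equal weight 3136 and 795, and the lower minimum 2276 higher. For early treated against 5m AS these gave 630, 805 and 544 higher in place of 306, and the lower minimum gave 564 lower in place of 375. For late treated against 5m AS they gave 1235, 1521 and 1046 higher in place of 635. Against arterial spots, equal weight gave 475 higher and 673 lower in early treated in place of 237 and 351, 935 higher in late treated in place of 403, and 487 lower in 5m AS in place of 303. Against injured spots, plain CPM gave 542, 1414 and 383 higher in early treated, late treated and 5m AS and 39 lower in 5m AS, and equal weight gave 602, 1913 and 447 higher and 86 lower, in place of 343, 927 and 188 higher and 133 lower.

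The median log2 ratio of the B and plasma cell list in 2m AS was -0.051 with the spots chosen after thinning, against 1.47 with the spots chosen on all UMIs. It was the 1 reversal of sign among list medians that were past 1.5-fold in the main setting. Sign changes of smaller medians, such as that of the distal convoluted tubule list in early treated, were not counted as reversals. Of the other list medians under these settings, 1229 stayed on the same side of 1.5-fold and 131 crossed it.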

Other observations

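In 2m AS a few further cell types appeared in the collagen-high spots at low counts. Mmrn1 and Lyve1, lymphatic endothelial genes, stood at 38.2 and 14.3 scaled CPM, against 1.34 and 0.0819 in its other spots, with 62% and 83% of the UMIs in 3 spots. Nkain4, a mesothelial gene, stood at 19.1 and 0.967. Ccl5, a chemokine of T and natural killer cells, stood at 200.4 and 21.1, while Nkg7 and Gzma of natural killer cells had no UMI in the collagen-high spots.

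Several genes with the largest differences between treated and untreated 5m AS also differed between the mixed library and WT. Prlr, the prolactin receptor, stood at 0.432, 0.616 and 22.3 scaled CPM in the collagen-high spots of early treated, late treated and 5m AS, and at 126 and 1.95 in the mixed library of females and in WT. Scd1, a fatty acid desaturase, stood at 18.6, 16.0 and 459.6, and at 666 and 45.9. The part of sex in these differences was not tested.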
